A study of Mus musculus with 4 samples.

Results

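The genes described here are 10 actin bundling and contractility genes, Actn1, Fscn1, Synm, Tpm1, Tpm2, Tpm4, Myh9, Vcl, Flna and Zyx. They were found by gene symbol from the annotation of the array, which gave 28 probe sets of the 45037 that are not controls. The members were chosen by the measured differences between the Cre lines on Actn1, Fscn1 and Synm, together with related genes, with results of these arrays known. The differences of the members are therefore given as a description, without a test. Gene expression was measured on 4 Affymetrix arrays of basal cells sorted from the tail skin of CD-1 mice, 2 from K14CREER/RosaYFP and 2 from InvCREER/RosaYFP animals.

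In both lines a tamoxifen-dependent Cre recombinase switches on a YFP reporter at the Rosa locus. The Cre is driven by the promoter of keratin 14, a keratin of basal cells, or of involucrin, a protein of differentiating cells. K14CREER mice received 1 ug of tamoxifen and InvCREER mice 10 ug, so that dose and line cannot be told apart. The sample titles give 3.5 days after induction and the protocol gives 4 days. Living YFP-positive cells with high alpha6 integrin and without surface CD34 were sorted in both lines, so that no unlabelled or unsorted control is at hand. Whether both arrays of a line stem from different animals is not given in the labels. The InvCREER arrays differed in Xist, from the inactive X chromosome (12.56 and 8.26), and in the Y-linked Uty (4.70 and 7.85). They are therefore not repeats of 1 RNA sample. The K14CREER arrays also differed, in Xist (7.25 and 5.44) and in Cd34 (6.07 and 3.59), but the labels do not say what separates them. Every p-value reflects the scatter of these arrays, and how much of it lies between animals is not known.

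Actin filaments become load-bearing when they are bundled or cross-linked and when myosin II pulls on them. Alpha-actinin and fascin hold filaments side by side, filamin joins them into networks, and tropomyosins run along the filament and set which proteins can bind it. Vinculin and zyxin sit where filaments end at the adhesion sites of the basal cell membrane. In basal keratinocytes this machinery connects integrins and cell junctions to the cytoskeleton.

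Some facts of the whole series bear on the values. The log2 values had array medians of 5.41 to 5.44. InvCREER 1 stood apart from the other arrays. Xist, a transcript of the inactive X chromosome, was at 12.56 there against 5.44 to 8.26 on the others, and the Y-linked Uty was at 4.70 against 7.19 to 7.85. InvCREER 2, at 8.26, also lay above K14CREER 1 and 2 (7.25 and 5.44) on Xist. Xist was thus higher in InvCREER without overlap, while Uty overlapped. The part of the animals' sex in the line differences, including that of the X-linked member Flna, was not tested. The log2 ratio of 3' to 5' control probe sets, a sign of RNA quality, was also highest on InvCREER 1, at 1.24 for beta-actin against 0.68 to 0.94. On the markers of the labelled cell type, Krt14 was at 14.14 and 14.17 in K14CREER against 13.82 and 13.85 in InvCREER, and Cd34 was under the filter on dim probe sets described next, with 6.07 on K14CREER 1 and 3.59 to 3.88 elsewhere. Ivl, the gene whose promoter drives the InvCREER, was under that filter too, at 4.58 and 6.23 in K14CREER against 4.78 and 5.06 in InvCREER.

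Each difference is the InvCREER mean minus the K14CREER mean on the log2 scale, where 1 unit is 2-fold, with the moderated standard error (SE) of a limma fit over all 22519 probe sets whose mean reached a log2 value of 5.42. Of the 28 member probe sets 21 reached it, and each of the 10 members had at least 1. For each member the brightest probe set, by its mean over the 4 arrays, stands for the gene. Of the 10 members 8 had a lower mean in InvCREER on this probe set and 2 a higher one. In 7 members both InvCREER arrays lay below both K14CREER arrays, and in none did both lie above. Over all 11270 genes tested the same order was seen in 24.1% and the reverse in 21.3%. The median difference of the members was -0.70, against -0.01 over all genes. limma called 3 of the 21 tested member probe sets at a Benjamini-Hochberg adjusted p under 0.05, beside 0.959% of all probe sets. The 3 were the brightest probe sets of Actn1, Fscn1 and Synm. On the brightest probe sets limma called 0 without K14CREER 1 and 2 without K14CREER 2. As these calls belonged to the choice of members, nothing is read from either share.

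**Figure D1:**
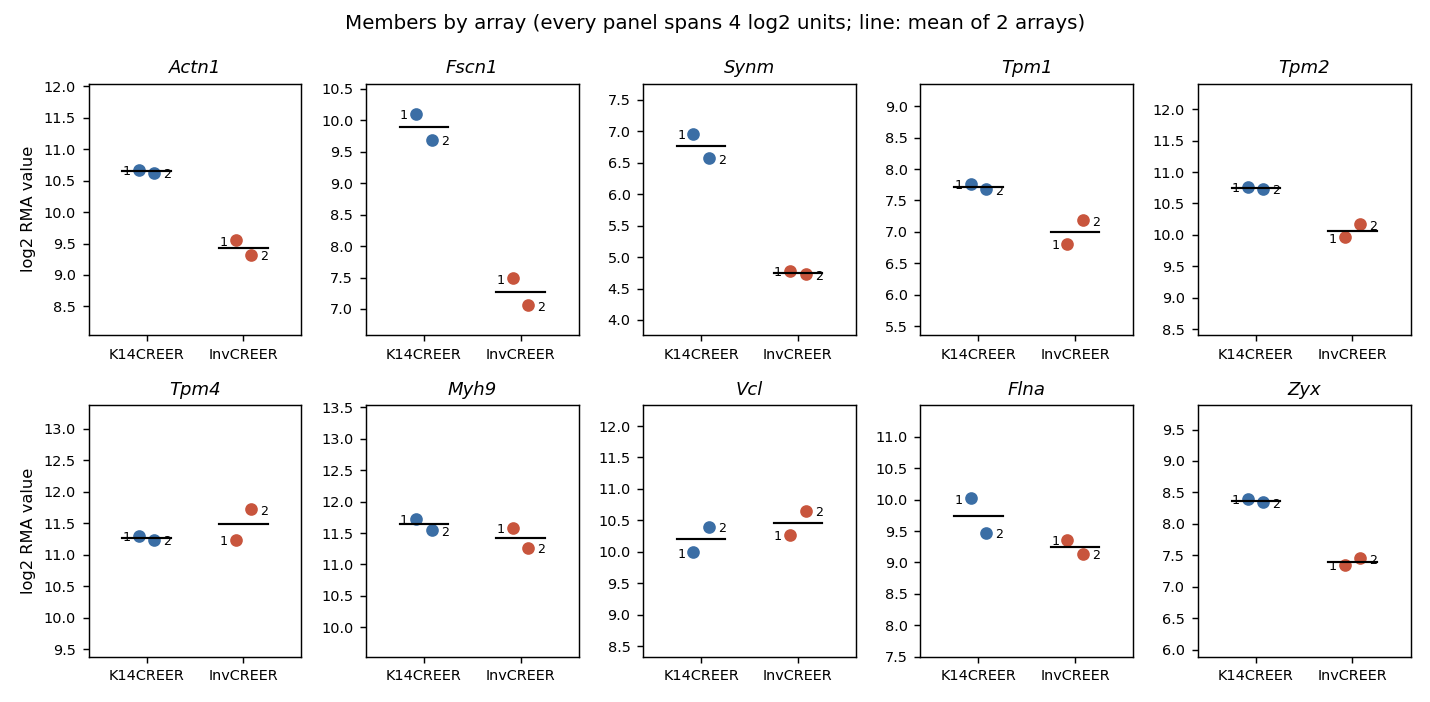
Log2 expression of the 10 members on each array, on the brightest probe set; points are arrays, numbered as in the sample titles, and lines are means of 2 arrays. Fscn1, Synm, Actn1 and Zyx are separated by 0.89 or more between the lines, while Tpm4, Myh9 and Vcl overlap.

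Of the bundling proteins Fscn1 had the largest difference among the members. Fascin packs filaments into the stiff bundles of filopodia and of migrating cells. Its brightest probe set, 1416514_a_at, was at 10.11 and 9.69 on the K14CREER arrays and at 7.49 and 7.06 on the InvCREER arrays. Both InvCREER arrays were low, and the lines were separated by a gap of 2.20. The difference was -2.62 (SE 0.26), or 6.17-fold lower in InvCREER. Arrays with the same number differed by -2.62 and -2.63, and without InvCREER 1 the difference was -2.84.

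The other probe sets of Fscn1 did not show a difference of that size. Probe set 1448378_at was at 7.63 and 7.54 in K14CREER against 7.30 and 7.55 in InvCREER, a difference of -0.17 (SE 0.23). Probe set 1416516_at was at 5.89 and 5.91 against 5.44 and 6.14, a difference of -0.11 (SE 0.29). On both, the arrays of the lines overlapped. Probe set 1416515_at, which lay under the filter, was at 4.67 and 4.68 against 4.36 and 4.27. Averaged over the 3 tested probe sets, Fscn1 was at -0.97. All 4 carry the same RefSeq accession in the annotation, and which part of the transcript each one reads was not analysed here.

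Actn1 encodes alpha-actinin-1, which cross-links filaments in stress fibres and at adhesion sites. Its brightest probe set, 1428585_at, was at 10.67 and 10.63 on the K14CREER arrays and at 9.55 and 9.32 on the InvCREER arrays. The K14CREER arrays lay 0.04 apart and the InvCREER arrays 0.23, against a gap between the lines of 1.08. The difference was -1.22 (SE 0.18), or 2.32-fold lower in InvCREER, and -1.33 without InvCREER 1. The other 2 probe sets were dim and had the same sign. Probe set 1452415_at was at 5.60 and 5.76 against 5.08 and 5.25, a difference of -0.51 (SE 0.22). Probe set 1427385_s_at, under the filter, was at 5.84 and 5.52 against 4.96 and 5.11, a difference of -0.64. The 3 probe sets thus disagree in size, not in direction.

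Flna encodes filamin A, which joins crossing filaments and ties them to membrane receptors. Its 1 probe set was at 10.02 and 9.47 on the K14CREER arrays and at 9.37 and 9.14 on the InvCREER arrays. The K14CREER arrays lay 0.55 apart, more than the line difference of -0.50 (SE 0.25), and the gap between the lines was 0.11. Without K14CREER 1 the difference was -0.22, and without K14CREER 2 it was -0.77.

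Synm encodes synemin, a large intermediate filament protein that binds desmin and vimentin as well as adhesion site proteins. Its brighter probe set was at 6.96 and 6.57 on the K14CREER arrays and at 4.78 and 4.73 on the InvCREER arrays. Both InvCREER arrays were under the filter value, and the difference was -2.01 (SE 0.24). The second probe set, under the filter, was at 5.54 and 5.48 against 4.63 and 4.68, a difference of -0.85. The lines did not overlap on either probe set. Without InvCREER 1 the difference of the brighter one was -2.04.

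**Figure D2:**
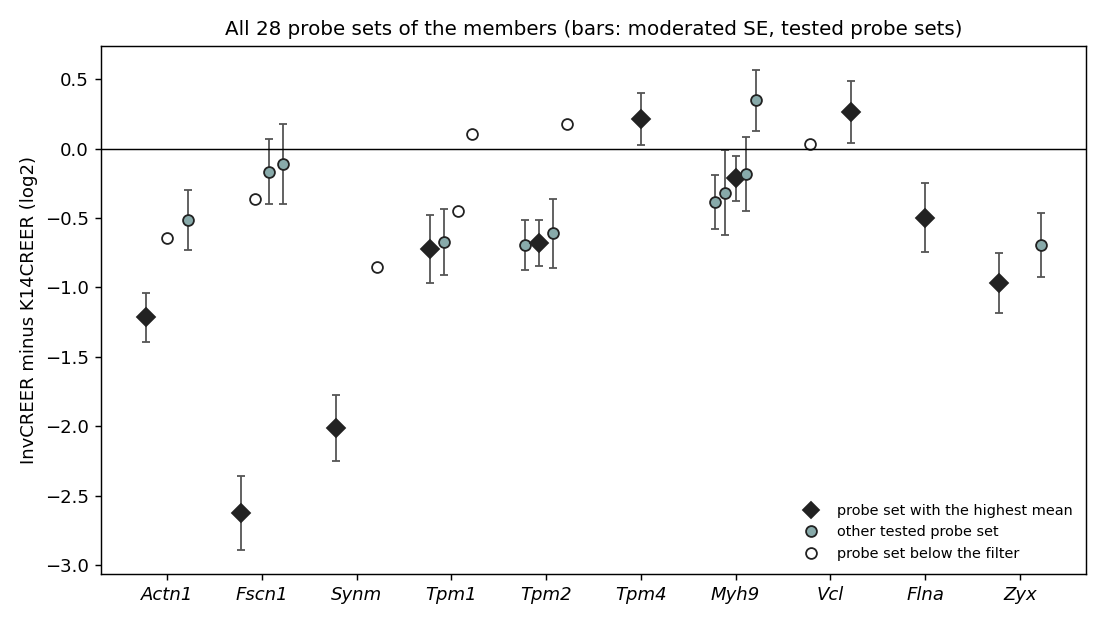
Difference between the lines in log2 units for all 28 probe sets of the members; diamonds are the brightest probe set of each gene, filled circles other tested probe sets, open circles probe sets under the filter, and bars the moderated SE. The Fscn1 diamond at -2.62 stands apart from the 3 other Fscn1 probe sets, which lie between -0.36 and -0.11, while the 3 tested Tpm2 probe sets lie between -0.70 and -0.61.

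The tropomyosins differed among themselves. Tpm1 and Tpm2 encode, among others, the long isoforms of stress fibres and muscle, and Tpm4 is best known for a short isoform of non-muscle cells. Tpm1 was at 7.76 and 7.68 on the K14CREER arrays and at 6.81 and 7.19 on the InvCREER arrays, a difference of -0.72 (SE 0.25). The InvCREER arrays were both low but lay 0.38 apart. Its second tested probe set was at -0.67 (SE 0.24). Of the 2 dim Tpm1 probe sets 1 was at -0.45 and the other, at 3.59 to 3.80 on all arrays, at 0.10.

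Tpm2 was at 10.76 and 10.73 on the K14CREER arrays and at 9.96 and 10.17 on the InvCREER arrays, a difference of -0.68 (SE 0.16). Its 2 other tested probe sets gave -0.70 (SE 0.18) and -0.61 (SE 0.25), and the lines did not overlap on any of the 3. The fourth, under the filter, was at 0.18.

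Tpm4 was at 11.30 and 11.24 on the K14CREER arrays and at 11.24 and 11.72 on the InvCREER arrays. InvCREER 2 alone was high, and InvCREER 1 lay within the K14CREER values. The difference was 0.21 (SE 0.19). Without InvCREER 2 it was -0.03, so that 1 array sets its direction. Tpm4 has 1 probe set. Whether Tpm4 differs from Tpm1 and Tpm2 in its response was not tested.

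Myh9 encodes the heavy chain of non-muscle myosin IIA, the motor that contracts the bundles. Its brightest probe set was at 11.73 and 11.54 on the K14CREER arrays and at 11.59 and 11.26 on the InvCREER arrays, a difference of -0.21 (SE 0.16). The arrays of the lines overlapped. Probe set 1417472_at was at 10.58 and 10.00 against 10.34 and 9.61, and in both lines array 1 lay above array 2, by 0.57 and 0.73. Those gaps exceed its line difference of -0.32 (SE 0.31). The remaining bright probe sets were at -0.38 (SE 0.19) and -0.18 (SE 0.27). The dimmest probe set, 1440708_at, had the opposite sign, at 5.60 and 5.60 against 6.05 and 5.84. The lines thus overlapped on 3 of the 5 probe sets of Myh9, and the 2 without overlap had opposite signs.

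Zyx encodes zyxin, a LIM protein that moves onto filaments under tension and recruits assembly factors. It was at 8.40 and 8.34 on the K14CREER arrays and at 7.35 and 7.45 on the InvCREER arrays. Within each line the arrays lay 0.06 and 0.10 apart, against a gap between the lines of 0.89. The difference was -0.97 (SE 0.22), or 1.96-fold lower in InvCREER, and -0.92 without InvCREER 1. The second probe set was at 7.45 and 7.41 against 6.63 and 6.84, a difference of -0.69 (SE 0.23).

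Vcl encodes vinculin, which links talin at integrin sites and catenins at junctions to actin. Its bright probe set was at 9.99 and 10.40 on the K14CREER arrays and at 10.27 and 10.65 on the InvCREER arrays. Array 2 lay above array 1 in both lines, by 0.41 and 0.38, and the lines overlapped. The difference was 0.27 (SE 0.22). Between arrays of the same number it was 0.28 and 0.25, but the labels do not say that the numbers pair the samples. Without K14CREER 1 it was 0.06, and without K14CREER 2 it was 0.47. The dim second probe set was at 0.03.

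**Figure D3:**
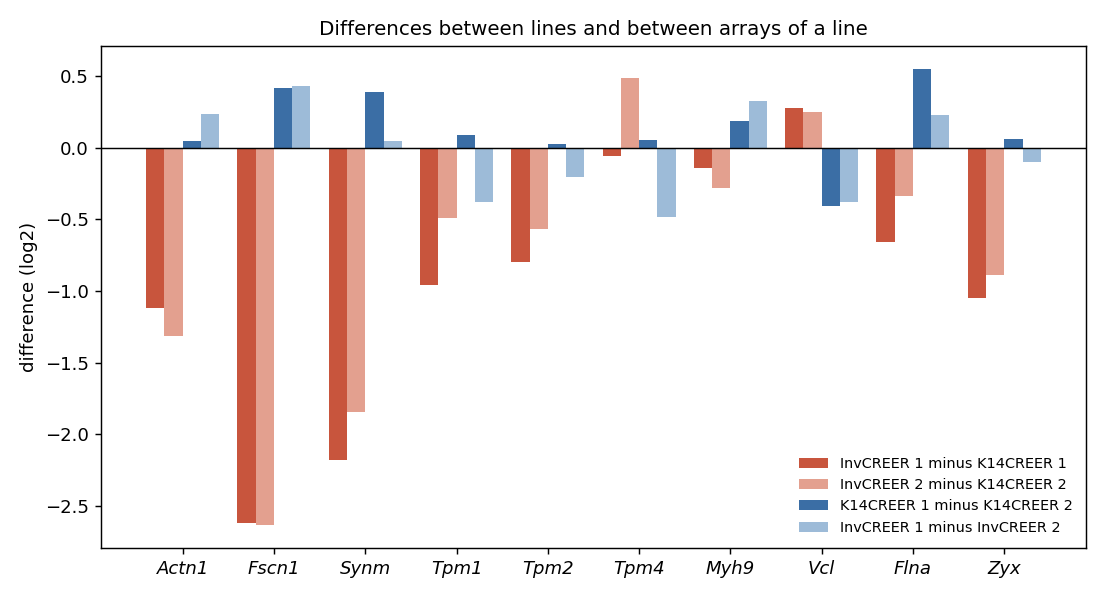
Differences in log2 units for each member on the brightest probe set: InvCREER minus K14CREER for arrays of the same number (red shades) and array 1 minus array 2 within each line (blue shades). For Vcl the within-line bars (-0.41 and -0.38) are longer than the between-line bars (0.28 and 0.25), and for Fscn1 the reverse is seen (0.42 and 0.43 against -2.62 and -2.63).

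The upstream sequences of 3 members, 1 without a lower value (Vcl) and 2 with one, are shown because many actin cytoskeleton genes are known targets of serum response factor (SRF), which binds the CArG box, a stretch of A and T bases between CC and GG. The RefSeq promoter table (GRCm38.p6) held 1 window for each of the 10 members, and the 250 bases before the start were searched on both strands. A CArG box was present in 1 of the 10, that of Vcl, starting 227 bases before the start, and in 1.47% of all 32851 promoters of the table. The Zyx window held the AP-1 type motif TGANTCA, starting 121 bases before the start, which 6.75% of all promoters hold. The letters GGAATG, the core bound by TEAD factors, were present in Flna, Tpm1 and Vcl, and in 12.6% of all promoters. The letters GGGCGG were present in 8 of the 10, all but Fscn1 and Synm, and in 32.7% of all promoters; in Vcl 1 such match lies next to GGAATG. The member windows were rich in G and C, with a median of 67.4% against 52.4% over all promoters. The windows below run 5' to 3' on the gene's strand, with matches to the CArG box, TGANTCA and GGAATG in capitals. The first is Vcl (chr14:20929148-20929397, plus strand), the second Zyx (chr6:42349578-42349827, plus strand) and the third Fscn1 (chr5:142960105-142960354, plus strand), which had the largest difference and no match to any of the 4 motifs.
Vcl: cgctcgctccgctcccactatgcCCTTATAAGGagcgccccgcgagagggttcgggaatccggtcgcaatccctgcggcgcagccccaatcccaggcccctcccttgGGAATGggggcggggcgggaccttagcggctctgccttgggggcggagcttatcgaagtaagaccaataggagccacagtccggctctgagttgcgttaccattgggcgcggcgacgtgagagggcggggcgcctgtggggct
Zyx: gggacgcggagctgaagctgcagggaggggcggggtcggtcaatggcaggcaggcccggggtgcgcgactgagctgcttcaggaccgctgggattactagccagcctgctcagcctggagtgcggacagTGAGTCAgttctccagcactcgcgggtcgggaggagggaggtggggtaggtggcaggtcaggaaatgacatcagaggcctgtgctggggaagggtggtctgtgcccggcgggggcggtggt
Fscn1: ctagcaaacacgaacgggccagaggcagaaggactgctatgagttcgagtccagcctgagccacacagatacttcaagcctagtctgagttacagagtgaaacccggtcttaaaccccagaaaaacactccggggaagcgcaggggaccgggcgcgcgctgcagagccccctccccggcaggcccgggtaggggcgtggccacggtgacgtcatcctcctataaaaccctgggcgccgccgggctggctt
A match is a description of the letters in the window, and other start sites of these genes were not used here.

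The genes whose profile over the 4 arrays was most like that of the members were found by the root mean square distance of their centred log2 values from the median member profile. That profile stood at 0.46 and 0.32 on the K14CREER arrays and at -0.47 and -0.32 on the InvCREER arrays. The 5 closest of the tested genes were Sh3bp4, Gdpd2, Esyt1, Jcad and Cd151, at distances of 0.02 to 0.03 log2 units. Their differences ran from -0.84 for Jcad to -0.77 for Gdpd2. Cd151 encodes a tetraspanin that associates with laminin-binding integrins. Among the members Tpm2, Tpm1 and Zyx lay closest to the median profile, at 0.07, 0.09 and 0.10, and Fscn1 lay farthest, at 0.95.

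Other genes of the actin cytoskeleton were read from 7 lists, written with earlier results of these arrays known. Of 129 listed genes 121 had a named probe set and 111 were tested. limma called none of the 111, beside 1.33% of all genes (0.958% higher and 0.373% lower in InvCREER). At an unadjusted p under 0.05, 24 lay lower and 4 higher in InvCREER, against 8.54% and 7.58% of all genes. The median difference of the 111 was -0.10. Without InvCREER 1 limma called 3 genes lower (Pxn, Tns3 and Dst), and without InvCREER 2 it called 4 lower (Capg, Pdlim1, Tns3 and Fhl1). None of the genes named in the next paragraphs passed the adjusted test on all 4 arrays, and their values are given with the SE.

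The list of adhesion plaque and membrane linkers had a median of -0.52, against -0.01 over all genes. Of its 19 tested genes 17 had lower means in InvCREER, beside 51.8% of all genes, and 15 were lower without overlap, beside 24.1%. Since some of its genes were already known to lie lower, nothing is read from these shares. Tns1, a tensin that binds actin and integrin tails, was at 9.28 and 8.67 in K14CREER against 7.85 and 7.48 in InvCREER, a difference of -1.31 (SE 0.29). Tns3 was at -1.14 (SE 0.21), the scaffold gene Pxn (paxillin) at -0.95 (SE 0.19) and Parva (alpha-parvin) at -0.89 (SE 0.27). The other tested probe sets of these 4 genes had the same sign but not always the same size. They were at -0.20 for Tns3, -0.28 for Parva and -0.82 for Pxn, and from -1.34 to -1.12 for Tns1. Vcl, which occupies the same sites, was at 0.27.

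Other bundling and cross-linking proteins were split. Of 20 tested genes 12 had lower and 8 higher means, with a median of -0.12. Without overlap 7 lay lower and 3 higher, beside 24.1% and 21.3% of all genes. The highest of those 3 was Pls3 (plastin 3), at 0.37 (SE 0.13). The median was -0.29 without InvCREER 1, -0.23 without K14CREER 2, -0.07 without K14CREER 1 and -0.06 without InvCREER 2. Synpo (synaptopodin, an alpha-actinin partner) was at -1.17 (SE 0.29), Palld (palladin) at -0.96 (SE 0.25), Svil (supervillin) at -0.79 (SE 0.21) and Pdlim1, a LIM protein that binds alpha-actinin, at -0.79 (SE 0.14). The 1 other tested Pdlim1 probe set was at 0.24. The paralogues Actn4 and Tpm3 were named after their values were seen. Actn4, the other non-muscle alpha-actinin, was at -0.19 (SE 0.16) and the tropomyosin gene Tpm3, counted in the myosin list, at 0.08 (SE 0.11), while the other 3 tested Tpm3 probe sets ran from -0.28 to 0.52.

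The list of myosin II and its regulators had a median of -0.02, with 11 lower and 9 higher means among 20 tested genes. The median changed sign, to 0.04, without InvCREER 1, with 9 lower and 11 higher means, and it was -0.05 without K14CREER 1 and -0.04 without K14CREER 2. At the filter at the 75th percentile it was 0.03 over 11 genes. Cald1 (caldesmon, which blocks myosin on the filament) was at 7.42 and 6.02 in K14CREER against 5.59 and 5.66 in InvCREER, a difference of -1.10 (SE 0.45). Ssh1, a phosphatase that activates cofilin, was at -0.91 (SE 0.30), and its 2 other tested probe sets at -0.26 and -0.24. Myh14, the heavy chain of non-muscle myosin IIC, was at 0.84 (SE 0.33) and the small GTPase gene Rhob at 0.81 (SE 0.40). In both, K14CREER 2 was the lowest array, with Myh14 at 8.07 and 7.16 in K14CREER against 8.47 and 8.44 in InvCREER and Rhob at 7.87 and 6.66 against 8.13 and 8.02. The member Myh9, another heavy chain of myosin II, was at -0.21 (SE 0.16) with overlapping lines. Whether Myh14 and Myh9 differ in their response was not tested.

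Actin itself and the genes of filament turnover had a median of -0.10 over 18 tested genes, which ran from -0.88 to 0.43. Without overlap 7 lay lower and 2 higher, beside 24.1% and 21.3% of all genes. Without K14CREER 2 the median was -0.06. The lowest were Scin (scinderin) at -0.88 (SE 0.24), Tmsb10, an actin monomer binder, at -0.66 (SE 0.20) and the capping gene Capg at -0.63 (SE 0.23), whose 1 other tested probe set was at 0.37. Gsn (gelsolin, which severs filaments) was at 0.43 (SE 0.11), and its 3 other tested probe sets ran from -0.34 to 0.75. The Arp2/3, formin and Ena/VASP list had a median of 0.03 over 19 tested genes, 0.02 without InvCREER 2 and 0.11 with the mean of the probe sets of a gene. Of these genes 11 had higher and 8 lower means. Without overlap 6 lay higher and 3 lower, beside 21.3% and 24.1% of all genes. The formin gene Diaph3 was at -0.67 (SE 0.23), Arpc1a, a subunit of the Arp2/3 complex, at 0.65 (SE 0.19), Wasl, an Arp2/3 activator, at -0.32 (SE 0.19) and the formin gene Daam1 at -0.30 (SE 0.17).

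**Figure D4:**
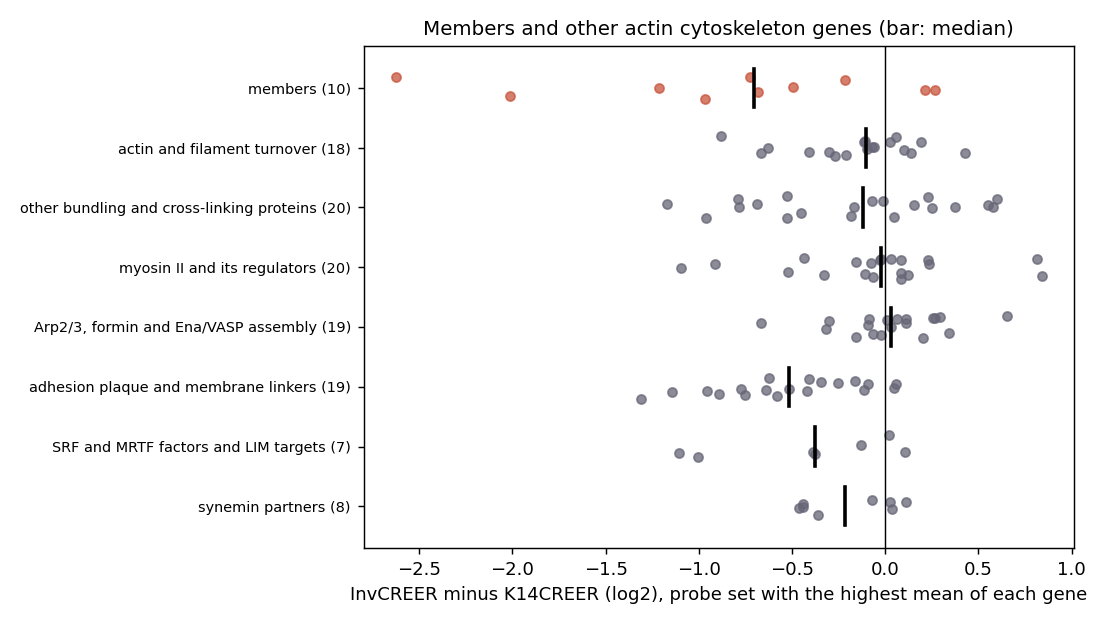
Differences between the lines in log2 units for the 10 members (red) and the tested genes of 7 other actin cytoskeleton lists (grey, number of genes in brackets), on the brightest probe set; black bars are medians. The median of the members is -0.70 and that of the adhesion plaque list -0.52, while those of the turnover, bundling, myosin and assembly lists lie between -0.12 and 0.03.

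Of the 7 SRF and MRTF genes and targets 5 had lower means, with a median of -0.38 that was -0.05 without K14CREER 1, -0.11 without InvCREER 2 and -0.77 without K14CREER 2. The LIM gene Fhl1 was at -1.10 (SE 0.34) and Ccn1, a matricellular SRF and YAP target, at -1.01 (SE 0.33), each without overlap. Among 8 synemin partners the median was -0.22, and it was -0.45 without InvCREER 1, -0.12 without InvCREER 2 and -0.49 without K14CREER 2. With the mean of the probe sets of a gene it was -0.004, with 4 lower and 4 higher means. The largest were Utrn (utrophin) at -0.46 (SE 0.21), Dst at -0.44 (SE 0.11), Plec at -0.44 (SE 0.19) and Nes (nestin) at -0.36 (SE 0.25). Of the 3 other tested Dst probe sets 1 had the same sign. The 2 other tested Plec probe sets were at -0.41 and 0.10, and the 1 other of Utrn and of Nes had the same sign.

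Several members are also abundant in muscle, fibroblasts and other cells, and in sorted bulk samples fewer cells of a type and less RNA per cell cannot be told apart. Of 13 smooth muscle and pericyte markers 4 reached the filter and none was called. Their mean over all 13 was 5.26 and 5.25 in K14CREER against 5.14 and 5.18 in InvCREER, and Myh11, Cnn1 and Actg2 ran from 3.66 to 5.17 on all arrays. The 4 tested markers ran from -0.67 for Smtn (smoothelin), which was lower without overlap, to 0.16 for Tagln. Mcam, under the filter, was also lower without overlap, at 5.46 and 5.20 against 4.59 and 4.82. Of 12 skeletal muscle markers, whose mean was 4.88 and 4.90 against 4.70 and 4.84, 2 reached the filter. Tnni2 was at -0.87, lower without overlap, and Mylpf at 0.02. Of 10 dermal fibroblast markers 5 reached it. The mean over all 10 was 6.37 and 5.64 against 5.44 and 5.32. Over the 5 that reached it, the mean was 7.91 and 7.06 against 6.59 and 6.55. Of these 5, 4 had lower means and 1, Fbln1, was at 0.003. The 2 other tested Fbln1 probe sets were at -0.91 and -0.79. Dcn (decorin) was at 9.50 and 9.07 against 7.09 and 7.75, and Thy1 at 9.18 and 7.80 against 6.64 and 6.71. Under the filter, Col1a1 was also lower without overlap, at 5.03 and 4.47 against 4.34 and 4.04. So was Pdgfra, at 4.72 and 4.66 against 4.52 and 4.40, while Lum overlapped, at -0.05. Col3a1, with overlap, was at 6.12 and 3.95 against 4.43 and 3.73. Dpt was higher, at 3.91 and 3.93 against 4.02 and 4.03. Endothelial markers had means of 5.07 and 4.95 against 4.90 and 5.10, and melanocyte markers of 6.65 and 6.16 against 6.14 and 6.65.

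Markers of epidermal state and of other skin cells moved with the lines. The 9 basal keratinocyte markers averaged 12.34 and 12.23 in K14CREER against 11.40 and 11.28 in InvCREER, and limma called 2 of them lower (Krt15 and Lamb3). Of the 8 tested spinous and granular markers 6 were called higher. Sebaceous markers averaged 6.22 and 5.56 on the K14CREER arrays, 9.40 on InvCREER 1 and 7.72 on InvCREER 2. Langerhans and myeloid markers averaged 5.53 and 5.20 on the K14CREER arrays, 7.43 on InvCREER 1 and 6.06 on InvCREER 2. The part of these cells and states in the differences of the members was not tested. Without InvCREER 1, the array where sebaceous and Langerhans markers were highest, the median difference of the members was -0.60, against -0.70 with it. InvCREER 2 also lay above both K14CREER arrays on these markers, so nothing about these cells is read from that value.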

How the data were processed

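The 4 arrays were grouped by the Cre line in their titles. Per the labels' protocols, the authors labelled 100 ng of RNA for each array by in vitro transcription from the 3' end. The submitters' processing notes name RMA and Affymetrix Expression Console 1.1. The deposited values are RMA values on a log2 scale. RMA gives the arrays a common distribution, which hides changes in total RNA per cell. Differences near the bottom and near the top of the scale can be compressed. The number of arrays limits the precision.

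Control probe sets (64) were left out, and probe sets were tested if their mean over the arrays reached the median of the rest. Genes were named from the platform annotation through Entrez numbers in a RefSeq table of GRCm38.p6 (34945 probe sets had 1 symbol, 932 several, and 9160 were unnamed here). limma 3.58.1 in R 4.3.3 (eBayes with a mean-variance trend, no block) compared the lines, 2-sided, with Benjamini-Hochberg adjustment over 22519 probe sets. On simulated data of this comparison with the same 22519 probe sets it recovered 33% of changes of 1 log2 unit and 99% of changes of 2, with 19 false calls among 151. With 2 arrays a side, the smallest p of an exact permutation test is 0.333.

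The members and lists were chosen with earlier results of these data known. Some listed genes are not reported here and were left out of the counts. Named besides the members were up to 4 genes per list, called genes first and then the largest differences without overlap, and the 5 genes with the closest profile. Actn4, Tpm3 and Pls3 were named outside this rule, after their values were seen. Alternatives covered the filter, variance trend, array weights, scaling, replicate block, left-out arrays, unit of testing, probe set kind and threshold. Fits without 1 array take the spread of the line with 2 arrays for both.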

Additional observations from a re-analysis of the deposited data

How the results depend on the processing

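Of the 10 members, 9 kept the sign of their difference under every alternative that gave a value, and Tpm4 changed sign without InvCREER 2 (-0.03). Averaging the tested probe sets of a gene gave -0.97 for Fscn1, -0.86 for Actn1 and -0.83 for Zyx. Synm and Tpm1 had no value at the filter at the 75th percentile, where the median of the other 8 members was -0.59. Leaving out single arrays moved the median of the members between -0.85 and -0.60. limma's calls over all probe sets, 216, ran from 82 to 981 when single arrays were left out, with 82 and 143 for K14CREER 1 and 2 and 499 and 981 for InvCREER 1 and 2. Those among the 111 other actin genes ran from 0 to 4 (3 without InvCREER 1 and 4 without InvCREER 2). Calls over all probe sets and among the other actin genes were 405 and 3 at the filter at the 75th percentile, 450 and 2 with the mean of the probe sets of a gene, 551 and 4 with 1 probe set per gene, and 692 and 3 at an adjusted p under 0.10. Without the variance trend they were 122 and 0. Some alternatives hold fewer probe sets or samples, and the cause of these changes was not tested. Of the members, limma called Actn1, Fscn1 and Synm with the settings of the report, none without K14CREER 1, Fscn1 and Synm without K14CREER 2, without the variance trend or without the filter, and Synm alone with the mean of the probe sets; with 1 probe set per gene Zyx was called too.

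With the replicate number as a block, calls were 1390 over all probe sets and 10 among the other actin genes, and Tpm2 and Zyx were called beside Actn1, Fscn1 and Synm. The deviations of same-numbered arrays correlated at r = 0.38 across probe sets, and the labels do not say that the numbers pair the samples. No detection call was used here, so how far the 7 of 28 member probe sets under the filter lie above background is unknown.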
